A study of Homo sapiens with 3 samples.

Results

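The genes described here are 10 members of the IL6-family and colony-stimulating cytokine system, chosen by name: the ligands IL6, LIF, IL11, CSF1, CSF2 and CSF3, the receptor chains IL6R, IL6ST and LIFR, and the inhibitor SOCS3. They were 10 of the 22439 genes that could be named on the arrays, and 22 probes read them. The rule that chose them used names and no measured value, but it was written with earlier results of these data known.

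IL6 binds IL6R, LIF binds LIFR and IL11 binds IL11RA, and each then signals through IL6ST, the shared chain also called gp130, to JAK kinases and the transcription factor STAT3. SOCS3, a STAT3 target, binds gp130 and the JAKs and shuts the signal off. CSF1, CSF2 and CSF3 are the macrophage, granulocyte-macrophage and granulocyte colony-stimulating factors, whose usual receiving cells are myeloid, and several of these cytokine genes are transcribed through NF-κB and have short-lived mRNAs. Renal carcinoma cells are known as producers of IL6.

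TK-10, an established human renal carcinoma line, was profiled on 3 one-colour Agilent arrays, with 1 array for each condition. The control cells received 0.1% DMSO, the cordyceps cells cordyceps at 750 μg/ml and the sunitinib cells 10 μM sunitinib, a receptor tyrosine kinase inhibitor, each for 48 h. The paper names cordycepin, a nucleoside of the same fungus, at another dose, and does not describe sunitinib, and the labels are followed here. All 3 cultures shared a DMEM medium with 10% FBS, 1% penicillin and streptomycin, and with zinc sulfate (16.7 μM), troglitazone (10 μM) and nicotinamide (10 mM), so the control cells carried these agents too. The question was how expression in the treated cells differed from that in the control cells, and both comparisons share the single control array. With 1 array for a condition no difference has a replicate check and no p-value is given, so that the number of arrays limits the precision throughout.

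The signal is the background-corrected brightness of a probe, given with the error that the scanner software estimated within that array. Levels and ratios were computed on the log2 scale after dividing each array's signals by its 75th percentile, which was 165 on the control, 138 on the cordyceps and 78.2 on the sunitinib array. A gene was counted as higher or lower where its brightest probe passed 2-fold and was well above background, by the software's own call, on at least 1 of the 2 arrays. A difference was also read against the 95% limit of the combined error, which covers technical error within the arrays and leaves out the spread between cultures. Between 37.8% and 45.5% of the gene probes were well above background on an array. In bulk RNA such as this, fewer cells of a kind and less RNA for each cell cannot be told apart.

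The upstream sequences of the 3 cytokine genes with the largest measured decreases on the sunitinib array that the RefSeq promoter table holds are shown because these genes moved together there. Each is the 250 bases before the start of transcription in GRCh38.p14, 5′ to 3′ on the gene's strand, at chr7:22726950-22727199 (plus strand) for IL6, chr5:132073539-132073788 (plus strand) for CSF2 and chr19:55370464-55370713 (minus strand) for IL11. Capitals mark matches, on either strand, to the NF-κB consensus, the AP-1 motif TGANTCA, the STAT motif TTCNNNGAA or the TATA motif TATAAA.
IL6: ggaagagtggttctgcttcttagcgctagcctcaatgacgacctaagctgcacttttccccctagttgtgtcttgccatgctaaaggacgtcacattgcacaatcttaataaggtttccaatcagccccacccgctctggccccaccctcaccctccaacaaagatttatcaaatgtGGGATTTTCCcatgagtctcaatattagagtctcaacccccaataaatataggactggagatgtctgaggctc
CSF2: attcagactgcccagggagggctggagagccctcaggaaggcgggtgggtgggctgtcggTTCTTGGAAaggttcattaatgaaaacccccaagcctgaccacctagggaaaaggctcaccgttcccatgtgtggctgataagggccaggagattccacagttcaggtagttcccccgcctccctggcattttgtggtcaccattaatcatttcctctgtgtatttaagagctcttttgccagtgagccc
IL11: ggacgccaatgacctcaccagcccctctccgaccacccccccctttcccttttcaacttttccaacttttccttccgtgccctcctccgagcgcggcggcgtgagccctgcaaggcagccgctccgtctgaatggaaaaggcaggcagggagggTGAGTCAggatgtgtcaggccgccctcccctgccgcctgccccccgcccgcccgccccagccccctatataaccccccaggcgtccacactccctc
IL6 held 1 NF-κB match, from 73 to 64 bases before the start. CSF2 held 1 STAT match, from 190 to 182 bases before the start, and IL11 held 1 AP-1 match, from 96 to 90 bases before it. None of the 3 windows held the TATA letters. Of the 35116 windows of this length in the table, 5.21% held the NF-κB consensus, 6.57% the AP-1 motif, 6.57% the STAT motif and 10.7% the TATA motif, with the TATA and other motifs free to overlap. A match is a description of the letters only. The table held 7 of the 10 genes, at 10 start sites, and LIF, CSF1 and CSF3 were not among them. In the other windows, 1 STAT match lay in each of 2 of the 3 LIFR start sites, 1 of which also held the TATA letters, and the IL6R, IL6ST and SOCS3 windows held no match.

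In sunitinib-treated cells, 5 of the 6 cytokine genes were lower than in control cells. CSF2 was 39.5-fold lower, IL6 6.91-fold, CSF3 at least 6.47-fold, LIF 2.62-fold and IL11 2.19-fold. LIFR was the 1 member counted as higher, at 2.06-fold. CSF1, the remaining cytokine, SOCS3 and the shared receptor IL6ST lay within 2-fold, and IL6R was not well above background on either array. Of the 14912 genes compared, 6.53% were lower and 6.50% higher by more than 2-fold, against 5 and 1 of the 9 members compared. The median log2 ratio of the members was -1.13, and that of all genes compared 0.00.

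In cordyceps-treated cells, by contrast, no member was counted as lower and 2 were higher: CSF2 at 2.03-fold and IL6R at a bound of 2.52-fold. The IL6R bound rests on 1 dim probe and did not pass the 95% limit of its error. Of the 14786 genes compared, 2.76% were lower and 2.99% higher by more than 2-fold, against 0 and 2 of the 10 members. The members' median log2 ratio was 0.26, beside 0.00 for all genes compared. Below 2-fold, IL6 and CSF3 were lower and IL11 and SOCS3 higher by more than the 95% limit of their error. The 2 treated conditions were each set against the same control array, so their ratios are not independent of each other.

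**Figure D1:**
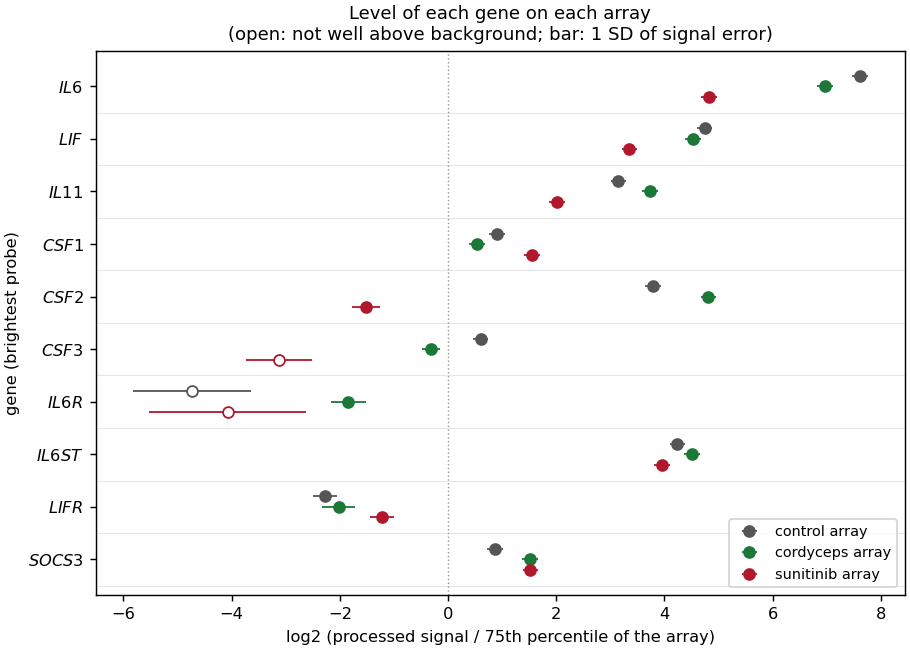
The log2 level of the brightest probe of each gene (x axis, processed signal over the 75th percentile of its array) is shown for the control, cordyceps and sunitinib arrays, with 1 SD of signal error as the bar and open points where the probe was not well above background. CSF2 lay at 3.79, 4.81 and -1.51 on the control, cordyceps and sunitinib arrays, and levels are to be compared within a gene only.

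IL6, the cytokine that gives the family its name, gave a signal of 32267 ± 3227 on the control, 17232 ± 1723 on the cordyceps and 2219 ± 222 on the sunitinib array. The control array was the highest and the sunitinib array the lowest, and on all 3 the signal was far above the lowest signal called well above background, which was 18.2 to 30.2. The log2 ratio was -2.79 with sunitinib (95% limit 0.40) and -0.65 with cordyceps (95% limit 0.40). The dimmer IL6 probe gave 108, 49.3 and 10.2 in the same order, the last not well above background. Its log2 ratio was -0.87 with cordyceps, and with sunitinib it was a bound of -1.48, that is, at least that far below control. Both probes therefore had the same direction in both comparisons. Of the 14912 genes compared with sunitinib, 83 had a lower ratio than IL6.

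LIF, which signals through LIFR and gp130, gave 4409 ± 441, 3170 ± 317 and 798 ± 79.9 on the control, cordyceps and sunitinib arrays. It stood lowest with sunitinib, at a log2 ratio of -1.39, and differed from control by less than the 95% limit of its error with cordyceps, at -0.22. The dimmer LIF probe read 74.5, 57.9 and 9.51, which gave -0.11 with cordyceps and a bound of -0.95 with sunitinib. That bound fell short of 2-fold because the probe was not well above background on the sunitinib array.

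IL11, which acts through IL11RA and gp130, had 1 probe, with signals of 1461 ± 146, 1839 ± 184 and 317 ± 32.1 on the control, cordyceps and sunitinib arrays. It lay on opposite sides of control, at 0.59 with cordyceps (95% limit 0.40) and -1.13 with sunitinib (95% limit 0.40). The count of IL11 as lower with sunitinib ended with normexp background correction and quantile normalization, at -0.87.

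CSF2, which encodes GM-CSF, had the widest span of the 10 genes. Its only probe read 2282 ± 228 on the control, 3876 ± 388 on the cordyceps and 27.4 ± 4.93 on the sunitinib array, still well above background on the last. The sunitinib ratio was -5.30 on the log2 scale (95% limit 0.58), and 1 of the 14912 genes compared had a lower one. The cordyceps ratio was 1.02 (95% limit 0.40), just past 2-fold. It stayed past 2-fold in 6 of 10 other settings, but these include changes of filter, probe choice and outliers that hardly touch this single probe. Where scaling or background correction changed, it was 1.24 with median scaling and 0.99 with the percentile over detected probes. It was 0.89 with quantile normalization, 0.92 with normexp and quantile normalization, and 0.76 on signals that were not scaled between arrays.

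CSF3, which encodes G-CSF, read 250 ± 25.2, 110 ± 12.6 and 9.0 ± 3.79 on the control, cordyceps and sunitinib arrays, the last not well above background. It was lower than control on both treated arrays, at -0.92 with cordyceps (95% limit 0.43) and at a bound of -2.69 with sunitinib. The dimmer CSF3 probe was well above background nowhere. On unscaled signals the cordyceps ratio was -1.18, past 2-fold.

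CSF1, the macrophage factor, behaved differently from CSF2 and CSF3. Its brightest probe read 308 ± 31.0, 200 ± 21.0 and 229 ± 23.2 on the control, cordyceps and sunitinib arrays, and the next 126, 101 and 99.1. After scaling, the sunitinib ratios of these probes were 0.65 and 0.72 and the cordyceps ratios -0.37 and -0.06. On unscaled signals, where the median of the genes measured on both arrays was -1.07 with sunitinib, the brightest probe stood at -0.43, and its ratio was above 0 in the 9 other settings. The remaining CSF1 probe was well above background nowhere.

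**Figure D2:**
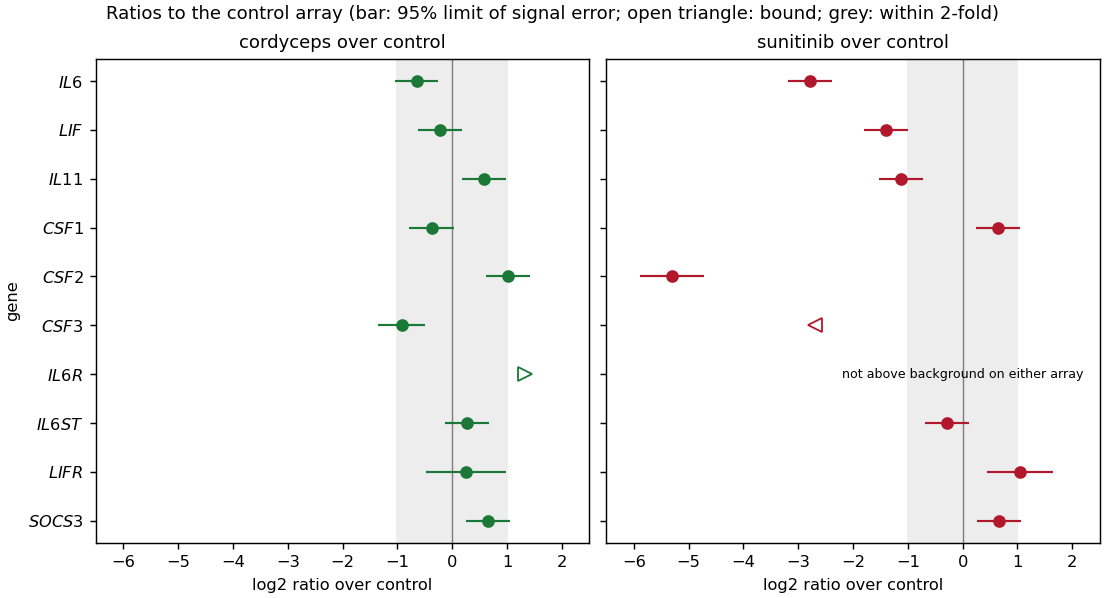
Log2 ratios over control (x axis) are shown for the 10 genes with cordyceps (left) and sunitinib (right), with the 95% limit of signal error as the bar, open triangles for bounds and grey for the range within 2-fold. With sunitinib 5 cytokine genes lay left of the grey band, down to -5.30 for CSF2, and with cordyceps none did.

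Of the receptor chains, IL6ST was read by 7 probes, all well above background on all 3 arrays. The brightest gave 3110 ± 311 on the control, 3143 ± 314 on the cordyceps and 1215 ± 122 on the sunitinib array. Its ratios, 0.27 and -0.28, were both within the 95% limit of 0.40. Over the 7 probes the log2 ratio ran from -0.36 to 0.27 with cordyceps, below 0 for 5, and from -0.38 to 0.13 with sunitinib, below 0 for 6. None of the 14 ratios passed its 95% limit. On unscaled signals the sunitinib ratio of the brightest probe was -1.36.

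LIFR, the chain that LIF binds, was dim, at 34.1 ± 5.13, 34.0 ± 7.18 and 33.4 ± 5.09 on the control, cordyceps and sunitinib arrays. These signals overlapped within their errors. The log2 ratio was 1.04 with sunitinib (95% limit 0.61), which is a level relative to the other genes of the dimmer sunitinib array, and it was -0.03 on unscaled signals. It fell short of 2-fold with median scaling, at 0.71, and with normexp correction and quantile normalization, at 0.29. With cordyceps it was 0.25, within its limit of 0.73.

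IL6R, the chain that IL6 binds, was well above background only on the cordyceps array, at 38.5 ± 8.48 against 6.18 ± 4.67 on the control and 4.64 ± 4.65 on the sunitinib array. The dim signal on the control array leaves a lower bound, 1.33 on the log2 scale. The other IL6R probe was well above background on no array, with signals of 7.93, 7.49 and 4.56. The bound of 1.33 is smaller than the 95% limit of its error, 2.23. The higher count therefore rests on 1 dim probe of 2, and it ended by the 95% error limit, where both arrays had to be well above background, and with normexp correction and quantile normalization, at 0.47.

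SOCS3, the feedback inhibitor, read 300 ± 30.3, 394 ± 40.1 and 225 ± 22.9 on the control, cordyceps and sunitinib arrays. Its log2 ratios were 0.65 with cordyceps and 0.66 with sunitinib, both past the 95% limit of 0.41 and short of 2-fold. On unscaled signals, which lower every sunitinib ratio alike, that ratio was -0.41.

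Read against each other without the control array, the treated arrays differed most in CSF2, which was 80.1-fold lower with sunitinib than with cordyceps. IL6 was 4.40-fold, IL11 3.29-fold and LIF 2.25-fold lower with sunitinib, each past the 95% limit of its error, and CSF3 was not well above background there. IL6ST was lower too, by less than 2-fold, at a log2 difference of -0.55 (95% limit 0.40). CSF1 and LIFR lay the other way, higher with sunitinib by 1.02 (95% limit 0.41) and 0.79 (95% limit 0.74) on the log2 scale. SOCS3 was at 1.51 and 1.52 on the log2 level scale, a difference of 0.01 with a 95% limit of 0.41. The agents and doses are unlike, so these values stand side by side only.

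**Figure D3:**
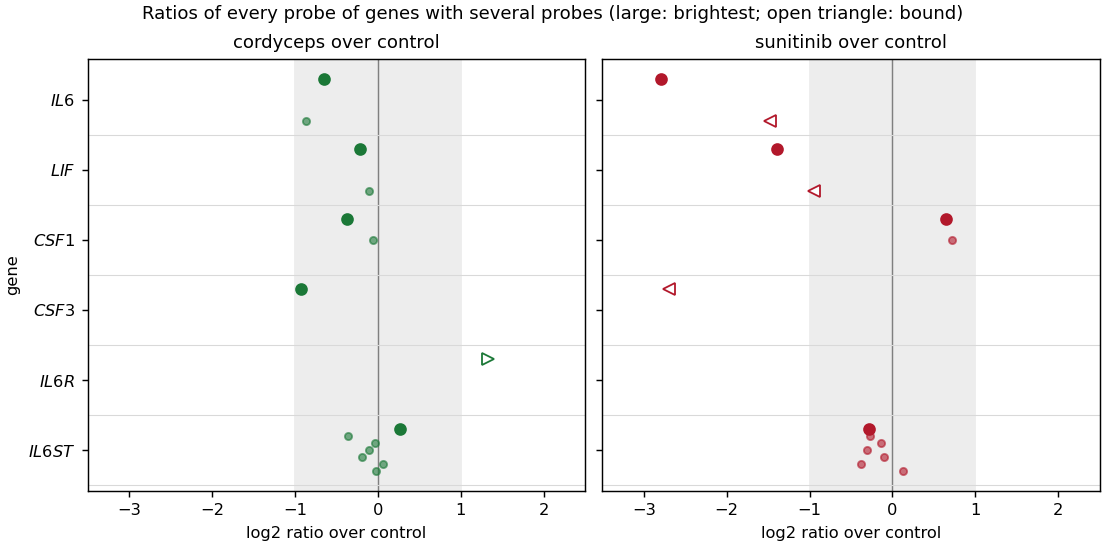
Log2 ratios over control (x axis) of every probe with a ratio are shown for the 6 genes with several probes, large for the brightest, with open triangles for bounds and grey for the range within 2-fold. Both IL6 probes lay below 0 on each treated array, and the 7 IL6ST probes lay between -0.38 and 0.27.

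The rest of the pathway was read from lists of genes by role. The counts stand beside the shares over all genes compared, 6.53% lower and 6.50% higher with sunitinib. With cordyceps these shares were 2.76% and 2.99%. Of the other IL6-family ligands, 4 were compared with sunitinib and 2 were lower: EBI3, a subunit shared by IL27 and IL35, fell from 1315 on the control to 213 (log2 ratio -1.55), and CLCF1, a ligand that signals through gp130, from 729 to 152 (-1.19). With the 3 members, 5 of the 7 ligands compared were lower, with a median of -1.19. With cordyceps none of the 7 was past 2-fold. EBI3 read 1228 there and CLCF1 351.

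Among 8 IL6-family receptor genes and sheddases compared with sunitinib, 2 were higher, LIFR and CNTFR, the ciliary neurotrophic factor receptor, at a bound of 1.57. CNTFR was named after its value was seen, and it was dim, at 28.2 on the sunitinib array. None was lower by its brightest probe, and the median was -0.23. OSMR, the oncostatin M receptor, was at -0.54 with sunitinib on its brightest probe and at -1.03 on the dimmer one. Of the colony-stimulating factors and related ligands, KITLG, which encodes the KIT ligand, was higher with sunitinib at 1.46, with 33.0 on the control and 43.1 on the sunitinib array, a dim probe whose signals before scaling are these. The receptors for these factors were mostly not measurable: 3 of 6 were compared in each comparison, and none passed 2-fold. CSF1R was well above background on the control array only, at 41.9, and CSF3R read 64.9 on the control, 44.7 on the cordyceps and 44.6 on the sunitinib array. After scaling, the log2 ratio of CSF3R was -0.28 with cordyceps (95% limit 0.60) and 0.53 with sunitinib (95% limit 0.50).

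All 11 JAK and STAT genes were compared. With sunitinib none passed 2-fold, and the median was 0.04. With cordyceps the median was -0.05. STAT3 itself stood at 126, 102 and 66.5 on the control, cordyceps and sunitinib arrays before scaling. After scaling, its log2 ratio was -0.05 with cordyceps (95% limit 0.46) and 0.15 with sunitinib (95% limit 0.46). The dimmer STAT3 probe was at -0.12 with cordyceps and 0.56 with sunitinib.

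Of 14 inhibitors of the pathway, SOCS1 was lower with sunitinib, from 528 to 105 (-1.25), and SOCS5 was higher at 1.08 with signals of 157 and 158. Each is 7.14% of the list, near the 6.53% lower and 6.50% higher of all genes compared. With cordyceps CISH, a SOCS-family gene induced by STAT5, was higher, from 74.1 to 149 (1.26). The medians of the list were -0.10 with sunitinib and 0.00 with cordyceps.

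Of 17 STAT3 target genes compared with sunitinib, 3 were lower (17.6%) and 1 higher (5.88%). Over all genes compared the shares were 6.53% and 6.50%, so the share higher was near that of all genes. VEGFA, the angiogenic growth factor, fell from 3177 to 293 (-2.37, and -1.85 on its dimmer probe), MYC, the growth transcription factor, from 2067 to 337 (-1.54) and CCND1, cyclin D1, from 664 to 139 (-1.19). JUNB, an AP-1 subunit, was the gene above, at 1.55 on a dim probe of 29.3 and 40.7. The list's median was -0.10. With cordyceps the kinase gene PIM1 was higher, from 762 to 1290 (1.02), none was lower, and the median was 0.32. The STAT3 list holds genes that many other factors also drive.

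Of the 10 genes for proteins that bind or cut AU-rich cytokine mRNAs, none passed 2-fold by its brightest probe in either comparison. The ratios ran from -0.51 for ZC3H12A, a nuclease that cuts IL6 mRNA, to 0.49 for ZFP36L2 with cordyceps, and from -0.99 for HNRNPD, which binds AU-rich elements, to 0.34 for ZFP36 with sunitinib. The dimmer HNRNPD probe was past 2-fold with sunitinib, at -1.57.

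**Figure D4:**
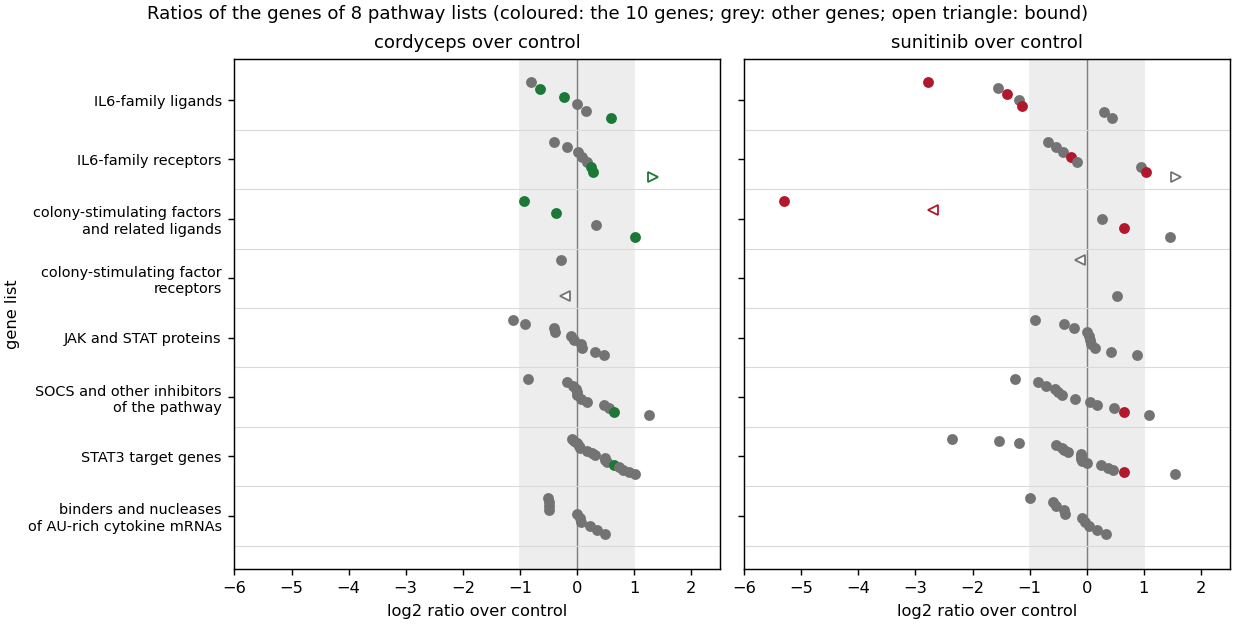
Log2 ratios over control (x axis) are shown for the genes of 8 pathway lists (rows) with cordyceps (left) and sunitinib (right), coloured for the 10 genes, grey for other genes and as open triangles for bounds. The ligand lists reach furthest left with sunitinib, and the JAK and STAT list lies within 2-fold there, with a median of 0.04.

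Among the genes whose pair of ratios lay nearest to that of IL6, of 12496 genes well above background on all 3 arrays, were BIK, which encodes a BCL2-interacting protein, at a distance of 0.16 on the log2 scale, and SRSF7, a splicing factor, at 0.29. Their sunitinib ratios were -2.71 and -3.05. For CSF2 the nearest were further off: H3C15, a histone H3 gene with near-identical copies, at 0.57, and the kinetochore genes NDC80 at 0.75 and KIF2C at 1.08. Their sunitinib ratios were -5.34, -4.76 and -4.23 and their cordyceps ratios 0.45, 0.51 and 0.87. The likeness is over 2 ratios that share a control array, and bears on nothing else.

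The labelled cell line was checked against its markers. Of 11 renal epithelium markers measured, 9 were well above background on every array, PAX8 at 6878, 3159 and 2382 and KRT18 at 32571, 29748 and 19898 among them, while CDH1 and CA9 were not well above background on any. Their summed signal was 1144 to 1830 times the 75th percentile of the array. Most of it was VIM, at 142519 of a summed 210531 on the control. On the cordyceps array VIM was 103601 of 157706, and on the sunitinib array 106702 of 143118. The sums add unlike probes and are to be compared within a list only. CDH6 was lower with cordyceps, at -2.38. Of 6 fibroblast markers, COL1A1, DCN and LUM were lower on both treated arrays: COL1A1 read 5308 on the control, 1069 on the cordyceps and 385 on the sunitinib array, DCN 707, 169 and 31.2, and LUM 383, 89.1 and 13.9. PDGFRB was well above background on all 3 arrays and COL1A2 and COL3A1 on none, and the summed signal of the list was 43.2, 13.6 and 12.4 times the 75th percentile. Of 6 leukocyte markers, 4, 1 and 2 were well above background on the control, cordyceps and sunitinib arrays, CD3E on none, with sums of 5.15, 3.13 and 2.69. CD14 read 693, 374 and 116 and PTPRC 18.4, 12.4 and 45.7. Of 5 endothelial markers, PECAM1, KDR and TEK were well above background on none, and VWF and CDH5 on all 3 arrays by at least 1 probe. The brightest VWF probe read 96.8, 73.4 and 14.9, the last not well above background, and CDH5 read 108, 79.7 and 60.4. With sunitinib VWF was at a bound of -1.33 on that probe and at -0.09 on its other probe, and CDH5 at 0.23. The sums of the list were 1.32, 1.27 and 1.13. On the sunitinib array 3 of the 4 fibroblast markers compared were lower, and PDGFRB was at a log2 ratio of 0.66 (95% limit 0.40). Of the leukocyte markers CD14 was lower, at -1.50, and PTPRC higher, at 2.39 on a dim probe. Another PTPRC probe did not show this rise. It read 26.6 on the control, 20.8 on the cordyceps and 14.3 on the sunitinib array, well above background on the control only. The part of these cells in the cytokine values was not tested.

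Slide and scan were the same for the 3 arrays. A bright streak covered windows of 566 spots and held no probe of the 10 genes. Outside it, 3 member probes had, among the 48 spots around them, spots over 16-fold brighter on the cordyceps array than on either other array. These were the IL11 probe (1 such spot), the brightest CSF1 probe (2) and a dimmer IL6ST probe (1). Their bearing on the ratios was not tested. Scaling had a large part in single calls, because the 75th percentile of the sunitinib array was 2.10-fold below that of the control. With the scaling used, the median log2 ratio of genes well above background on both arrays was 0.01 with cordyceps and 0.00 with sunitinib, and it was -0.24 and -1.07 on unscaled signals and 0.23 and -0.33 with scaling to the median of all probes. Of the genes past 2-fold, the share that was higher was 52% with cordyceps and 49.9% with sunitinib. It was 24.8% and 1.98% on unscaled signals, and 77.0% and 21.5% with median scaling. The decreases of CSF2, IL6, CSF3 and LIF with sunitinib passed 2-fold in every setting that gave them a ratio, 10 of 10 for CSF2, IL6 and LIF and 9 of 9 for CSF3. These settings include changes of filter, outliers and streak that could hardly move a measured ratio. Where scaling or background correction changed, the decreases were smallest with normexp and quantile normalization. They were then -3.97 for CSF2, -2.78 for IL6, -1.73 for CSF3, a bound, and -1.30 for LIF.

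**Figure D5:**
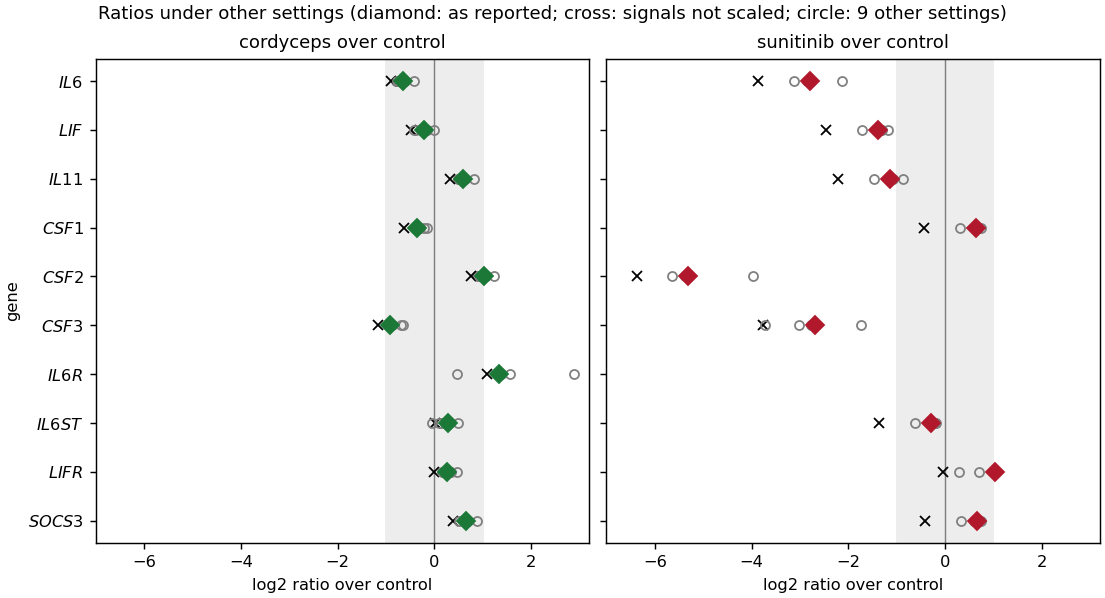
The log2 ratios over control (x axis) of the 10 genes are shown as reported (diamond), on signals not scaled between arrays (cross) and under 9 other settings (circles), with grey for the range within 2-fold. The sunitinib ratios of CSF2 ran from -6.38 to -3.97 and those of IL6 from -3.86 to -2.13, while LIFR, CSF1 and SOCS3 lay below 0 on unscaled signals, where the median of all genes measured on both arrays was -1.07.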

How the data were processed

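RNA of TK-10 cells (0.5 μg for each array) was labelled with Cy3 and read on single-colour Agilent arrays of 62976 spots, 1 for each of 3 conditions. The authors deposited the output of Agilent Feature Extraction 11.5.1.1, whose processed signal is an intensity on a linear scale after background subtraction and spatial detrending, with an error and a background call for each spot. They also deposited a table of intensity values that equalled the mean processed signal of a probe within 0.01% for 99.87% to 99.92% of probes and was not scaled between arrays. The methods of the paper describe a 2-colour array and a replicate-based test, neither of which applies to these files, and the 2-fold limit was kept.

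Control and outlier spots were dropped and replicate spots averaged, and each of 58201 gene probes was set on the log2 scale relative to the 75th percentile of its array. Probes were named through a RefSeq table (GRCh38.p14), which gave 31104 probes a symbol. In each comparison a gene took its brightest probe, by mean signal on the arrays compared, and the background call was applied afterwards. Where the dim side was not well above background, the ratio was a bound against the higher of the lowest detected signal on that array and the probe's own. Genes for which this left no ratio count as compared, at 0. The members, gene lists and settings were chosen with earlier results of these data known. The genes named are the members, up to 4 of the largest calls of each list (probes detected on both arrays) and the 3 nearest profiles to CSF2 and IL6. CNTFR, OSMR, CSF1R, CSF3R, STAT3 and the AU-rich binders were named after their values were seen. Some genes of the lists and profiles are not reported here. Promoters were cut to the 250 bases before the start. The alternatives changed the scaling, background correction (normexp, offset 50), filter, probe choice, outliers, streak and error limit. Python 3.11.15, numpy 2.4.6, pandas 2.3.3, matplotlib 3.10.9, R 4.3.3 and limma 3.58.1 were used, and the scripts were tested on simulated data.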

Additional observations from a re-analysis of the deposited data

How the results depend on the processing

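Of 188 log2 ratios of the members under 10 other settings, 145 moved by less than their combined error, and 43 moved further. The 145 include ratios that could not move. Changes of filter left measured ratios as they were, and so did the mean of probes for genes with 1 usable probe. On signals not scaled between arrays, LIFR, CSF1 and SOCS3 with sunitinib, all above 0 as reported, were at -0.0295, -0.43 and -0.41. The sign also changed with cordyceps for LIF with median scaling (0.0011), IL6ST with the mean of its probes (-0.06) and LIFR on unscaled signals (-0.0048), whose reported ratios were all within the 95% limit, so that 6 of the 188 changed sign. With cordyceps, members counted as higher numbered 1 with the percentile over detected probes, with quantile normalization, on unscaled signals and where both arrays had to be well above background, and 0 with normexp. Members counted as lower with cordyceps numbered 1 on unscaled signals and 2 by the 95% error limit. With sunitinib, members counted as higher numbered 0 with median scaling, on unscaled signals and with normexp, and 3 by the error limit. Members counted as lower with sunitinib stayed within 1.5 times the 5 reported, at 4 to 6. The count of 6 was on unscaled signals, where 8007 of the 14913 genes compared were lower as well. Over all genes with cordyceps, the counts higher and lower were 746 and 223 with median scaling, 274 and 831 unscaled, 165 and 170 with normexp, 1636 and 975 with no filter on dim probes, and 2113 and 1912 by the error limit. With sunitinib they were 532 and 1937 with median scaling, 162 and 8007 unscaled, 366 and 492 with normexp, 6218 and 1513 with no filter, and 3137 and 3093 by the error limit. With no filter, 62.7% and 80.4% of calls were higher with cordyceps and sunitinib. The cause of these shifts was not tested. No paired analysis was possible because each group has 1 array, and no replicate could be left out. Signal over background limits IL6R, LIFR, CSF3 with sunitinib and the dim probes of IL6 and LIF, where only bounds or wide limits are given.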
